A study of Mus musculus with 6 samples.

Results

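Kinesins and cytoplasmic dynein are the motor proteins that move cargo along microtubules. Their genes were examined by RNA sequencing of the hippocampus, the part of the brain that lays down new memories, in young mice injected repeatedly with lidocaine and in young control mice. A gene was counted as a motor gene where its symbol in the expression table named a kinesin heavy chain (Kif followed by a digit or c), a kinesin light chain (Klc1 to Klc4), a cytoplasmic dynein subunit (Dync1 or Dync2) or a dynactin subunit (Dctn1 to Dctn6). This rule took 58 of 22050 rows: 41 kinesin heavy chain genes, 4 kinesin light chain genes, 7 dynein genes and 6 dynactin genes.

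The lidocaine group had 3 libraries, and the control group had 3. The labels call the animals young and give no strain, exact age, sex, lidocaine dose or control injection, and the old mice of the study's design were not analysed here. Lidocaine numbs tissue by blocking the sodium channels that carry nerve impulses. The comparison asks which hippocampal genes differ with repeated lidocaine. Whether the libraries of a group stem from different animals is not stated in the labels, so the p-values cover only the spread seen among these libraries, and that spread may be technical.

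Most kinesins walk toward the growing plus end of microtubules and carry vesicles, mitochondria and mRNA outward from the cell body, whereas dynein, held to its cargo by dynactin, carries endosomes, signalling vesicles and worn organelles back. Neurons depend on both because synapses lie far from the nucleus. Other kinesins build the mitotic spindle, trim microtubules or serve in cilia, the antenna-like projections of cells.

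Library totals were 16013017 to 16984995 estimated counts with lidocaine and 13887604 to 15990264 in controls. Although the labels name the mouse, the identifiers of all 22050 rows are rat Ensembl ones, so gene names are used as the table gives them, with no coordinates. Neuronal markers (Snap25, Syt1, Slc17a7 and 5 others) were all present and summed to between 7199 and 7294 CPM (counts scaled to library size) with lidocaine and to between 6818 and 7238 CPM in controls. Of 8 markers of hippocampal subfields, 5 had enough counts to be tested. Pcp4 averaged 31.7 CPM with lidocaine and 32.4 CPM in controls, and Bok averaged 75.4 and 69.9 CPM. Wfs1, Prox1 and the low Cdh24 were less even between libraries. Wfs1, of CA1 pyramidal cells, had 12306, 5555 and 13397 counts in lidocaine libraries 1 to 3 and 9792, 10725 and 9646 counts in control libraries 1 to 3, lowest in lidocaine 2. Prox1, which defines dentate granule cells, was listed at or near 0, with 0, 0 and 22.2 counts with lidocaine and 0, 21.0 and 21.7 counts in controls. Its counts are fractional (not whole numbers), and with such counts an exact 0 can be a failed estimate. The share of granule cells therefore cannot be read from Prox1. Oligodendrocyte markers summed to between 8076 and 11100 CPM with lidocaine and to between 11205 and 12973 CPM in controls, without overlap, and meningeal fibroblast markers to between 107.4 and 142.2 CPM with lidocaine and to between 90.1 and 101.5 CPM in controls, also without overlap. The summed markers of astrocytes, microglia, oligodendrocyte precursors, vessels and choroid plexus overlapped between the groups. The precursor sum joins opposite differences, each without overlap. Pdgfra and Cspg4 were higher with lidocaine (log2 fold change 0.11 and 0.25), and Olig1 and Olig2 were lower (-0.14 and -0.17). Of all tested genes, 9.98% had groups without overlap. All 6 microglia markers had positive fold changes, with a median of 0.07 on the log2 scale. None of these precursor and microglia genes passed the edgeR test described below. The part of all these cell types in the motor gene values was not tested. In tissue RNA, fewer cells of a type and less RNA per cell cannot be told apart.

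No motor gene passed the test between lidocaine and control. Of the 58, 50 had enough counts to be tested, and edgeR's quasi-likelihood test called 0 of them at a Benjamini-Hochberg-adjusted p under 0.05 over all 13408 tested genes, where 0.0149% of all tested genes were called. DESeq2, which called 0.151% of the genes it tested, and limma-voom also called 0 motor genes. Without adjustment, 1 motor gene, Kif5b, had p under 0.05 in edgeR, against a background of 4.36% of tested genes. Fold changes were positive in 23 motor genes and negative in 27, with a median log2 fold change of -0.01 (lidocaine over control), beside 0.00 over all tested genes. The lowest was -0.60 for Kif20b and the highest 0.56 for Klc2. In 32 of 50 (64%) the 95% interval of the fold change lay inside a 1.5-fold change either way, and in 14 (28%) inside a 1.2-fold change. Over all tested genes these shares were 63.6% and 22.1%. The groups did not overlap in 2 motor genes, Kif3c and Kifc3, both higher with lidocaine, and in 0 motor genes that were lower. Of all tested genes, 9.98% had groups without overlap, 4.89% higher and 5.09% lower with lidocaine.

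**Figure D1:**
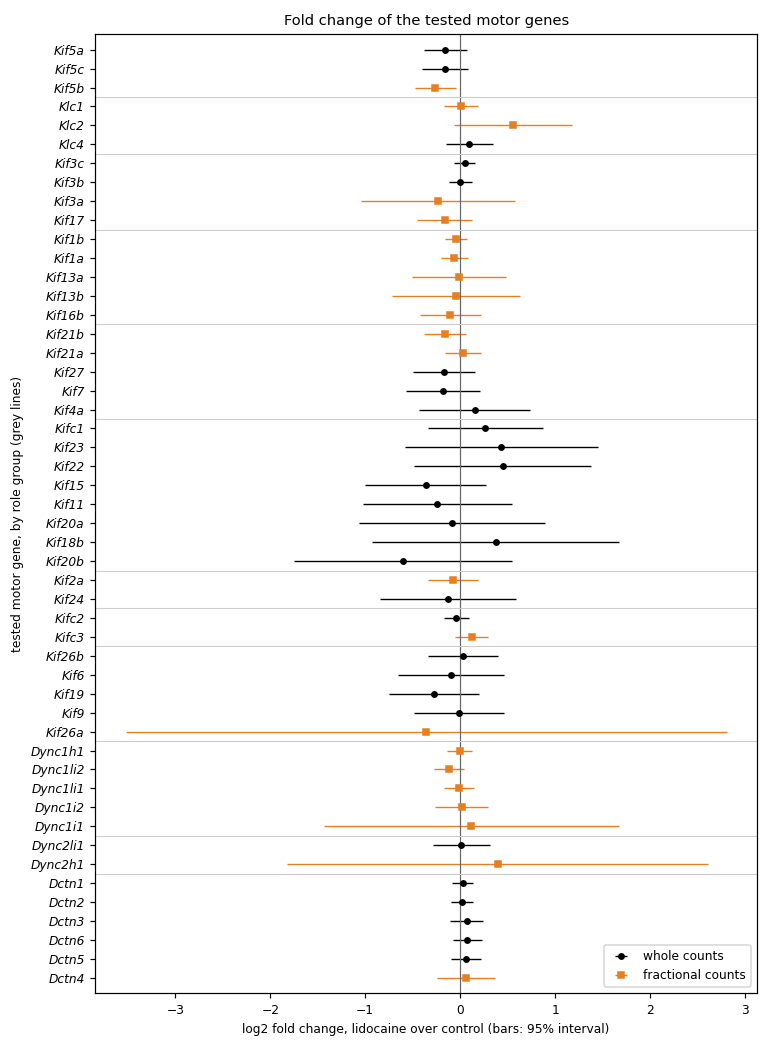
The log2 fold change of each of the 50 tested motor genes, lidocaine over control (point), with its 95% interval (bar), grouped by role. Black circles mark genes with whole counts and orange squares genes with fractional counts. All intervals cross 0 except that of Kif5b, which runs from -0.48 to -0.04.

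The motor genes covered a wide range of levels. FPKM, the authors' measure of fragments scaled to transcript length and library size, averaged over 50 in 11 motor genes, from 5 to 50 in 17, from 1 to 5 in 7 and under 1 in 20, and 3 were at 0 in all libraries. Kif5a stood first at a mean of 268 FPKM over the 6 libraries, rank 106 of 22050 rows, followed by Kif1b at 229.7 FPKM, and the ranges of these 2 genes over libraries did not overlap. Klc1 (160 FPKM), Kif5c (146 FPKM), Dctn1 (133 FPKM) and Dync1h1 (128 FPKM) came next, and within these 4 each overlapped in range with the one after it. Compared library by library, Klc1 stood above Kif5c and Kif5c above Dctn1 in 6 of 6, and Dctn1 above Dync1h1 in 5 of 6. Below them stood Kif1a at 92.7 FPKM, Dctn2 at 73.6, Kifc2 at 63.7, Kif3c at 58.9, Dync1li2 at 54.4 and Dctn3 at 43.7 FPKM. In this stretch only Kifc2 with Kif3c and Kif3c with Dync1li2 overlapped, though Kifc2 was above Kif3c in 6 of 6 libraries and Kif3c above Dync1li2 in 5 of 6. From Kif3b, at 19.4 FPKM, down to Kif26b, at 6.86 FPKM, every gene overlapped in range with the next. By the annotation deposited with the table, 11 motor genes carried a term for a neuronal compartment such as axon or dendrite and none for a mitotic structure. Their median was 16.4 FPKM. The reverse held for 19, with a median of 0.295 FPKM. The ranges overlapped, at 0.0683 to 268 FPKM in the first set and 0 to 133 FPKM in the second. The second set includes Dctn1 and Dync1li2. Both kinds of term were carried by 3 genes (median 19.4 FPKM) and neither by 25 (median 1.815 FPKM), among them Dync1h1.

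**Figure D2:**
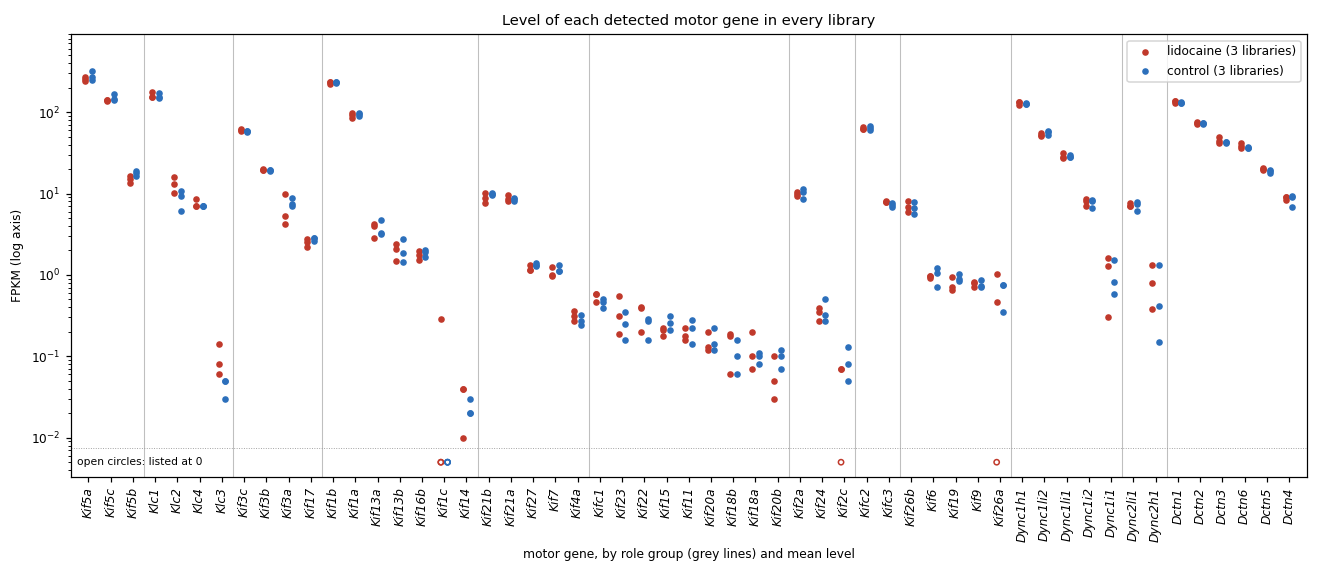
FPKM on a log axis of the 55 motor genes with a value above 0, in each of the 3 lidocaine libraries (red, left of each pair) and the 3 control libraries (blue), ordered by role group and level. Levels run from above 200 FPKM for Kif5a and Kif1b to below 0.2 FPKM for several mitotic kinesins, and the red and blue points of most genes lie on each other.

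Kinesin-1, the main carrier of mitochondria and many vesicles along axons, is built of heavy chains that walk and light chains that bind cargo. Kif5a, a heavy chain of neurons, had 269, 258 and 239 FPKM in lidocaine libraries 1 to 3 and 323, 248 and 273 FPKM in control libraries 1 to 3. The groups overlapped, and control 1 was the highest. Kif5a had a log2 fold change of -0.16 ± 0.10 (SE), with a 95% interval from -0.38 to 0.07. Kif5c, also a neuronal heavy chain, had 139.9, 137.2 and 142.6 FPKM with lidocaine and 168.5, 142.4 and 146.4 FPKM in controls, again highest in control 1. Its log2 fold change was -0.16 ± 0.10 (SE). With single libraries left out, the log2 fold change of Kif5a ran from -0.24 without control 2 (edgeR, unadjusted p = 0.0337, Benjamini-Hochberg-adjusted p = 0.978) to -0.04 without control 1, and that of Kif5c from -0.23 without lidocaine 3 to -0.05 without control 1.

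Kif5b, the heavy chain used in most cell types, had 16.6, 13.6 and 14.9 FPKM with lidocaine and 19.1, 18.0 and 16.3 FPKM in controls. Lidocaine 1 lay just above control 3, and all other lidocaine values lay below all controls. Kif5b had the smallest p of the motor genes in edgeR, with a log2 fold change of -0.26 ± 0.09 (SE; edgeR, unadjusted p = 0.0239, Benjamini-Hochberg-adjusted p = 0.995). With single libraries left out, the unadjusted p of edgeR ran from 0.0113 without lidocaine 1 to 0.0824 without control 1, and it was also above 0.05 without lidocaine 2 (0.0805) and without control 2 (0.0631). Kif5b has fractional counts, which can arise where reads are divided between genes or transcripts. How they arose here is not stated by the sources used. As a share of heavy chain FPKM, Kif5a took 62.2% ± 1.66 with lidocaine and 62.2% ± 1.34 in controls (SD, n = 3 each). Kif5c took 34.1% ± 1.61 with lidocaine and 33.8% ± 0.961 in controls, and Kif5b took 3.66% ± 0.302 with lidocaine and 3.96% ± 0.388 in controls (SD, n = 3 each).

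Among the light chains, Klc1, the main one of neurons, averaged 162 ± 13.6 FPKM with lidocaine and 158.3 ± 11.4 FPKM in controls (SD, n = 3 each), with a log2 fold change of 0.01 ± 0.08 (SE). Klc2, a light chain of many tissues, had 13.03, 10.3 and 15.8 FPKM in lidocaine libraries 1 to 3 and 10.8, 9.44 and 6.04 FPKM in control libraries 1 to 3. Lidocaine 2 lay below control 1, so the groups overlapped. The log2 fold change of Klc2 was 0.56 ± 0.26 (SE), with a 95% interval from -0.06 to 1.18 (edgeR, unadjusted p = 0.0693, Benjamini-Hochberg-adjusted p = 0.995). It was 0.35 without control 3, the lowest library, and 0.74 without control 1. In DESeq2, Klc2 had an unadjusted p of 0.0147 (adjusted p = 0.993), below the 0.0177 of Kif5b. In limma on log2(FPKM + 1) its unadjusted p was 0.0442 (adjusted p = 0.951). Klc2 has fractional counts. Klc4 averaged 7.54 ± 0.964 FPKM with lidocaine and 6.97 ± 0.036 FPKM in controls (SD, n = 3 each). Klc3, known mainly from testis, was listed at 3 to 6 counts with lidocaine and at 1 or 2 counts in controls and was not tested. A ratio computed after these values were seen, light chains over kinesin-1 heavy chains in FPKM, was 0.465, 0.426 and 0.444 with lidocaine and 0.370, 0.407 and 0.384 in controls. The groups of this ratio did not overlap, and it was not tested because it was chosen after its parts were seen.

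**Figure D3:**
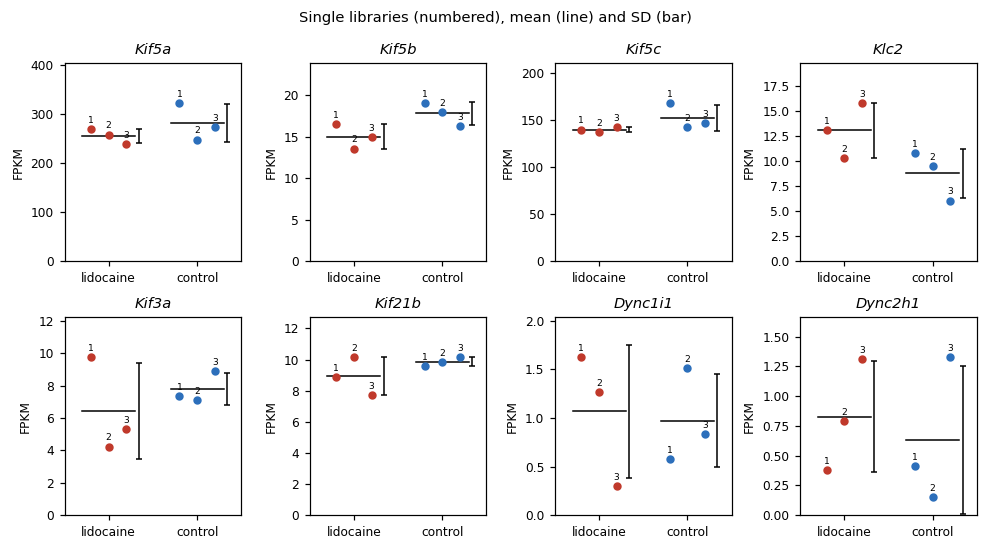
FPKM in each numbered library for 8 motor genes, lidocaine (red) left of control (blue), with the mean as a line and the SD as a bar (n = 3 each). The groups overlap in all 8 genes. Control 1 is the highest library in the Kif5a, Kif5b and Kif5c panels, and single libraries of 1 group differ several-fold in the Dync1i1 and Dync2h1 panels.

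Kinesin-2 motors build cilia and carry vesicles in dendrites. Kif3c, a neuron-enriched partner of Kif3a, had 60.1, 61.7 and 58.8 FPKM with lidocaine and 56.8, 58.1 and 58.0 FPKM in controls. Every lidocaine value lay above every control value, but the log2 fold change was 0.05 ± 0.05 (SE), with a 95% interval from -0.06 to 0.16. Kif3b, a core heavy chain of the heterotrimeric motor, averaged 19.5 ± 0.396 FPKM with lidocaine and 19.3 ± 0.287 FPKM in controls (SD, n = 3 each), with a 95% interval from -0.12 to 0.12 on the log2 scale. Its partner Kif3a, with fractional counts, had 9.79, 4.24 and 5.30 FPKM with lidocaine and 7.36, 7.10 and 8.93 FPKM in controls. Lidocaine 1 was the highest library, and lidocaine 2 and 3 were the lowest. The log2 fold change of Kif3a was -0.23 ± 0.33 (SE). It was -0.68 without lidocaine 1 (edgeR, unadjusted p = 0.00512, Benjamini-Hochberg-adjusted p = 0.967) and 0.0047 without lidocaine 2. Kif17, which carries NMDA receptor vesicles in dendrites, averaged 2.49 ± 0.282 FPKM with lidocaine and 2.77 ± 0.130 FPKM in controls (SD, n = 3 each), and its log2 fold change was -0.16 ± 0.13 (SE), or -0.25 to -0.08 with single libraries left out.

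Kinesin-3 motors carry the precursors of synaptic vesicles and dense core vesicles. Kif1a, the main such carrier of axons, averaged 91.3 ± 5.88 FPKM with lidocaine and 94.2 ± 3.66 FPKM in controls (SD, n = 3 each), with a 95% interval from -0.20 to 0.08 on the log2 scale. Kif1b, which carries mitochondria and synaptic vesicle precursors, averaged 227 ± 7.38 FPKM with lidocaine and 232.1 ± 2.44 FPKM in controls (SD, n = 3 each), with a 95% interval from -0.16 to 0.08. Both intervals exclude a 1.2-fold change. The endosome motors Kif13a, Kif13b and Kif16b lay between 1.44 and 4.69 FPKM in all 6 libraries, with log2 fold changes from -0.10 to -0.01. All 5 tested kinesin-3 genes have fractional counts and negative fold changes. Kif1c was listed at 32.3 counts in lidocaine 2 and at 0 in the other 5 libraries, and with fractional counts an exact 0 can be a failed estimate, so no fold is given. Kif14, a motor of cytokinesis, had 2 to 6 counts with lidocaine and 3 or 4 in controls and was not tested.

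Of the kinesin-4 genes, Kif21b, a neuronal motor that also restrains microtubule growth, had 8.88, 10.2 and 7.72 FPKM with lidocaine and 9.57, 9.83 and 10.2 FPKM in controls. Lidocaine 1 and 3 lay below all controls, and lidocaine 2 equalled the highest control. Its log2 fold change was -0.16 ± 0.10 (SE), and it ran from -0.26 without lidocaine 2 (edgeR, unadjusted p = 0.0161, Benjamini-Hochberg-adjusted p = 0.999) to -0.07 without lidocaine 3. Its relative Kif21a averaged 8.77 ± 0.838 FPKM with lidocaine and 8.49 ± 0.305 FPKM in controls (SD, n = 3 each). Kif7, a regulator of hedgehog signalling in cilia, and Kif27, its close relative, had log2 fold changes of -0.18 ± 0.17 and -0.17 ± 0.14 (SE). Kif4a, a chromosome motor of dividing cells, stood at 0.24 to 0.36 FPKM in all libraries.

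Motors of cell division were the lowest group. The 10 genes with roles in the spindle or cytokinesis, or in a family near them, include Kif11, Kif15, Kif20a, Kif23 and Kifc1. They summed to 2.37, 2.21 and 1.70 FPKM with lidocaine and to 2.16, 1.96 and 1.51 FPKM in controls. The highest, Kifc1, a minus-end motor of the spindle, was counted 38, 36 and 29 times with lidocaine and 28, 24 and 25 times in controls. Its groups overlapped once scaled to library size (log2 fold change 0.27 ± 0.26, SE). Kif15, which helps to keep the spindle bipolar, was counted 25, 27 and 28 times with lidocaine and 30, 40 and 24 times in controls (-0.36 ± 0.28, SE, or -0.49 to -0.21 with single libraries left out). Kif23, a cytokinesis motor, was counted 45, 25 and 16 times with lidocaine and 25, 20 and 12 times in controls (0.44 ± 0.44, SE). Over the 8 tested genes of this group, 4 fold changes were positive and 4 negative, and no 95% interval lay inside a 1.5-fold change, so changes of that size could not be told from none in these genes. Markers of proliferating cells such as Mki67 and Top2a summed to between 19.1 and 23.5 CPM with lidocaine and to between 18.5 and 25.6 CPM in controls. Kif18a had 6 to 18 counts with lidocaine and 7 or 8 in controls and was not tested, and Kif12 was at 0 in all libraries.

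Among the kinesin-13 depolymerases, which shorten microtubules, Kif2a, the member that prunes neurites, averaged 9.77 ± 0.581 FPKM with lidocaine and 10.2 ± 1.42 FPKM in controls (SD, n = 3 each), and its log2 fold change was -0.07 ± 0.11 (SE). Kif24, which acts at the base of cilia, stood at 0.27 to 0.50 FPKM over all libraries. The mitotic Kif2c had 0 to 5 counts with lidocaine and 3 to 7 in controls and was not tested, and Kif2b was at 0 throughout. Kifc2, a minus-end kinesin of neurons, averaged 63.1 ± 1.69 FPKM with lidocaine and 64.2 ± 2.92 FPKM in controls (SD, n = 3 each), with a 95% interval from -0.17 to 0.09 on the log2 scale. Kifc3, a minus-end motor also found in epithelia, had 8.15, 7.86 and 7.82 FPKM with lidocaine and 6.78, 7.62 and 7.31 FPKM in controls, without overlap. Its log2 fold change was 0.12 ± 0.08 (SE; edgeR, unadjusted p = 0.159, Benjamini-Hochberg-adjusted p = 0.995).

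Kinesins of motile cilia and kinesins without known motility were low except for Kif26b, which averaged 6.97 ± 1.05 FPKM with lidocaine and 6.76 ± 1.17 FPKM in controls (SD, n = 3 each). Kif6, Kif9 and Kif19, which serve cilia, stood between 0.66 and 1.22 FPKM in all libraries. Kif19, which limits the length of cilia, had the smallest p of this group, with 0.94, 0.66 and 0.72 FPKM with lidocaine and 1.04, 0.84 and 0.90 FPKM in controls and a log2 fold change of -0.27 ± 0.20 (SE), or -0.43 to -0.17 with single libraries left out. Markers of ependyma and motile cilia summed to between 69.6 and 83.1 CPM with lidocaine and to between 69.1 and 84.8 CPM in controls. Kif26a, with fractional counts, was listed at 172.3, 72.9 and 0 counts with lidocaine and at 110.6, 119.7 and 49.8 counts in controls, and its 95% interval ran from -3.53 to 2.81 on the log2 scale. Kif28p was at 0 in all libraries.

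Dynein-1, the retrograde motor, has a heavy chain that walks and intermediate and light intermediate chains that join it to dynactin and cargo. Dync1h1, the heavy chain, had 121, 133 and 132 FPKM in lidocaine libraries 1 to 3 and 126.5, 131.0 and 125.3 FPKM in control libraries 1 to 3. The groups overlapped, and the log2 fold change was -0.01 ± 0.06 (SE), with a 95% interval from -0.14 to 0.13, which excludes a 1.2-fold change. The light intermediate chain Dync1li2 averaged 52.9 ± 2.68 FPKM with lidocaine and 55.9 ± 3.29 FPKM in controls (SD, n = 3 each), with -0.11 ± 0.07 (SE) as its log2 fold change, or -0.16 to -0.07 with single libraries left out. Dync1li1 averaged 28.8 ± 1.98 FPKM with lidocaine and 28.8 ± 0.921 FPKM in controls (SD, n = 3 each).

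As listed in FPKM, the dynein intermediate chains were far below the heavy chain. Both have fractional counts and rat identifiers, and whether their listed levels reflect their transcripts was not tested. Dync1i2, the form of most cell types, averaged 7.90 ± 0.832 FPKM with lidocaine and 7.74 ± 0.996 FPKM in controls (SD, n = 3 each). Dync1i1, the form known from neurons, had 1.63, 1.27 and 0.30 FPKM with lidocaine and 0.58, 1.51 and 0.83 FPKM in controls. Its lowest and highest libraries were both lidocaine ones, and the 95% interval of its log2 fold change ran from -1.43 to 1.67. In FPKM, Dync1h1 exceeded both intermediate chains together 14.7 ± 3.18-fold with lidocaine and 14.7 ± 1.28-fold in controls (SD, n = 3 each). All 5 dynein-1 genes have fractional counts. In dynein-2, which returns material from the tips of cilia, the light intermediate chain Dync2li1 averaged 7.23 ± 0.335 FPKM with lidocaine and 7.10 ± 0.910 FPKM in controls (SD, n = 3 each). The heavy chain Dync2h1, with fractional counts, had 0.38, 0.79 and 1.31 FPKM with lidocaine and 0.41, 0.15 and 1.33 FPKM in controls, a spread within each group larger than the difference between them.

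The fold changes of all 6 dynactin genes were positive, from 0.02 to 0.08 on the log2 scale, and 5 of the 6 intervals excluded a 1.2-fold change. Dctn1, the large subunit that binds dynein and microtubules, had 138.7, 135.9 and 129.2 FPKM with lidocaine and 130.4, 132.2 and 129.1 FPKM in controls. Lidocaine 3 lay below controls 1 and 2, and the log2 fold change was 0.03 ± 0.05 (SE). Dctn2, or dynamitin, averaged 74.5 ± 2.04 FPKM with lidocaine and 72.6 ± 1.85 FPKM in controls (SD, n = 3 each). Dctn6, a subunit of the pointed end of the complex, had the smallest p of the group, with 41.3, 38.6 and 36.2 FPKM with lidocaine and 37.0, 36.0 and 35.9 FPKM in controls and a log2 fold change of 0.08 ± 0.07 (SE). Dctn3, Dctn4 and Dctn5 had log2 fold changes of 0.07 ± 0.07, 0.06 ± 0.13 and 0.07 ± 0.07 (SE).

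Spread between libraries differed with the kind of count, but for motor genes the direction depended on the level of the genes taken. Of the 58 motor genes, in 23 the count of 1 library or more is fractional, and in 35 all counts are whole. Among motor genes of at least 5 FPKM, the median within-group coefficient of variation was 7.38% over the 15 with fractional counts and 4.26% over the 13 with whole counts. Among all tested genes at or above the lowest CPM of these (17.05 CPM), it was 9.10% over 3520 genes with fractional counts and 6.40% over 3773 with whole counts. Without a floor on level, the order among tested motor genes was the reverse, 9.80% over 22 with fractional counts and 11.5% over 28 with whole counts. Over all tested genes without a floor, the median was 13.1% with fractional counts and 10.1% with whole counts. The most variable motor genes, Dync2h1 at 75.2%, Kif26a at 70.8% and Dync1i1 at 58.3%, all have fractional counts. Kif3c, at 1.59%, had whole counts and was the least variable. The cause of the difference was not tested.

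**Figure D4:**
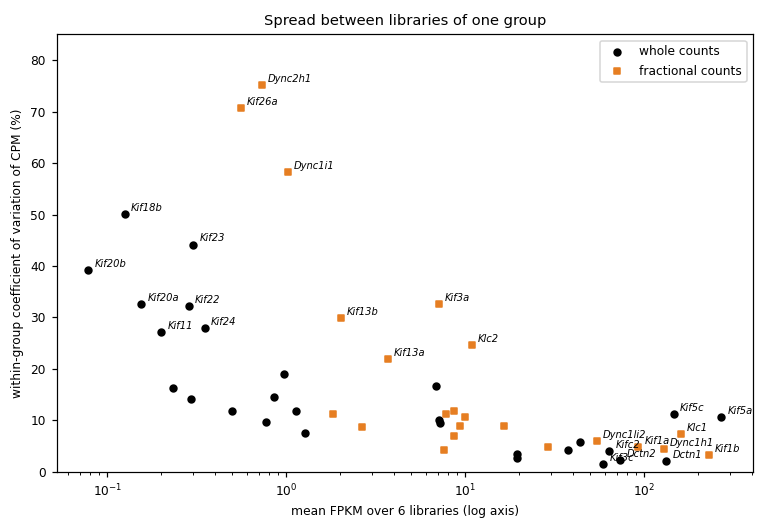
Within-group coefficient of variation of CPM, in percent, against the mean FPKM over the 6 libraries (log axis) for the 50 tested motor genes. Black circles are genes with whole counts and orange squares genes with fractional counts. Low genes spread widely, and the points furthest above the rest, Dync2h1, Kif26a and Dync1i1, are orange, while Dctn1, Dctn2 and Kif3c lie at the bottom.

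Partners of the motors were followed in 5 lists of 73 genes, of which 71 were in the table under the listed symbol and 68 were tested. edgeR called 0 of the 68 at an adjusted p under 0.05, and 2 had an unadjusted p under 0.05, against the background of 4.36%. The median log2 fold change over the 68 was -0.02, with 30 positive and 38 negative. DESeq2 and limma-voom called 0 partner genes too. Scaled to library size, the groups did not overlap in Kifbp and Mapk8ip2, higher with lidocaine, and in Kidins220, Ift20, Ift43 and Ift88, lower with lidocaine. Of all tested genes, 9.98% had groups without overlap. Mapk8ip3, a scaffold that links kinesin-1 and dynein to axonal cargo, had 12.3, 9.67 and 9.46 FPKM with lidocaine and 13.7, 13.7 and 11.7 FPKM in controls. Its groups overlapped, with lidocaine 1 above control 3 (log2 fold change -0.33 ± 0.12, SE; edgeR, Benjamini-Hochberg-adjusted p = 0.995). Kifbp, which binds and restrains kinesins, had 56.2, 55.1 and 54.7 FPKM with lidocaine and 50.3, 53.2 and 49.5 FPKM in controls, without overlap (0.10 ± 0.05, SE). Over the 26 kinesin adaptor genes, 15 fold changes were positive and 11 negative.

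Of the 15 tested genes of intraflagellar transport, the cargo trains that kinesin-2 and dynein-2 pull along cilia, 12 had negative and 3 positive fold changes, with a median of -0.10 on the log2 scale, beside 0.00 over all tested genes. Ift43, a subunit of the complex that returns with dynein, had 1.78, 1.60 and 1.46 FPKM with lidocaine and 3.12, 2.31 and 2.12 FPKM in controls. Every lidocaine value lay below every control value, and the log2 fold change was -0.66 ± 0.24 (SE; edgeR, unadjusted p = 0.0272, Benjamini-Hochberg-adjusted p = 0.995). Ift88, a subunit of the outbound complex needed to build cilia, had 2.63, 2.55 and 2.66 FPKM with lidocaine and 3.13, 2.93 and 2.98 FPKM in controls, also without overlap (-0.22 ± 0.11, SE). The 6 dynein light chain genes had a median log2 fold change of -0.06, with Dynlrb2 at -0.37 ± 0.36 and Dynll2 at -0.05 ± 0.06 (SE). The other 6 dynactin genes, of the actin-related filament and its caps, had a median of 0.02, with Actr1a at 0.10 ± 0.06 and Actr1b at 0.05 ± 0.06 (SE). Over 15 tested dynein regulators and adaptors the median was -0.03, with the vesicle adaptor Bicdl1 at 0.49 ± 0.23 and the dynein regulator Nudc at -0.15 ± 0.09 (SE), and with single libraries left out Bicdl1 ran from 0.36 to 0.68 and Nudc from -0.22 to -0.08.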

How the data were processed

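Per the labels' protocols, total RNA of the hippocampus was purified by RNeasy kit and libraries were prepared with a SMARTer mRNA kit. Build mm10 is named by the submitters' processing notes, and no aligner, counter or annotation by the sources used here. The authors deposited an estimated count and an FPKM value per gene and library, per the file headers. Should mouse reads have been assigned to rat genes, values would depend on the likeness of the genes. Columns were matched to samples by group initial and replicate number. Counts were rounded, filtered with filterByExpr (13408 genes left), scaled by TMM and tested with edgeR 4.0.16 (quasi-likelihood, robust, two-sided, Benjamini-Hochberg over all tested genes, calls at 0.05) in R 4.3.3. Standard errors and 95% intervals came from the F statistic. A count was taken as whole within 1e-06. DESeq2 1.42.0, limma-voom and limma 3.58.1 on log2(FPKM + 1) or log2(FPKM + 0.1) were alternatives, as were other scalings, no filter, whole-count genes, a replicate block and leaving out each library. Fold changes are edgeR's on counts; levels are FPKM. The test was run on simulated whole counts with a smooth trend of spread, so that run does not cover genes with fractional, uneven counts. Every pair of libraries differed by more than sampling noise (chi-square over its degrees of freedom at least 10.0).

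Motor genes and lists were chosen with earlier results of these data known. Named by rule were, per role group, the 2 motor genes of highest FPKM and the one of smallest p, the 10 of smallest p among all motor genes, untested genes, well-known transport motors, and per partner list the 2 of smallest p. Other motor genes named were chosen after their values were seen, as were the bounds of 1.5-fold and 1.2-fold and the level of 5 FPKM.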

Additional observations from a re-analysis of the deposited data

How the results depend on the processing

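No motor gene and no partner gene was called by edgeR, DESeq2, limma-voom or limma on FPKM, or with any library left out, and the lowest adjusted p of a motor gene under any alternative was 0.913. Over all genes, where edgeR called 2, DESeq2 called 23, limma on log2(FPKM + 0.1) 5, edgeR with whole-count genes 0 (370 at an unadjusted p under 0.05), with the replicate block 0 (682 unadjusted), and between 0 and 6 without each library. Motor genes at an unadjusted p under 0.05 numbered 1 of 50 in edgeR, Kif5b. They numbered 2, Kif5b and Klc2, of 55 in DESeq2 and of 50 in limma on log2(FPKM + 1) and on log2(FPKM + 0.1). With whole-count genes, which leave out Kif5b, there were 0 of 28. Without each library there were 1 to 2 of 50, from Kif5b, Klc2, Kif3a, Kif21b and Kif5a. Over all genes, the same counts were 585 of 13408 in edgeR, 568 of 16887 in DESeq2, and 636 and 618 of 13408 in limma on FPKM. Without each library they were 503 to 707 of 13590 to 13631. Whether the shared replicate numbers pair the libraries was not settled. Deviations of same-numbered libraries correlated at 0.05 (0.0451), 0.03 and -0.0014 across genes. Those of libraries with different numbers correlated at -0.0429 to 0.0171. Lidocaine 1 and 2 correlated best with their own number, and lidocaine 3 did not. With 3 libraries per group, correlations this weak cannot decide the question.

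Of 596 log2 fold changes of 41 named genes under alternatives, 565 kept their sign and 31, in 13 genes near 0 or of wide spread, did not; the cause was not tested. Kif3b had -0.00077 in limma-voom, -0.0024 with whole-count genes and -0.00041 with the replicate block. Dync1h1 had 0.0071 on both FPKM scales. Dync1i1 had -0.086 in limma-voom, -0.034 on log2(FPKM + 0.1) and -0.053 with the replicate block. Without each library in turn, Klc1 ran from -0.058 to 0.062, Kif3b from -0.027 to 0.022, Kif21a from -0.041 to 0.081, Kif23 from -0.00033 to 0.71, Kif2a from -0.18 to 0.019, Kif24 from -0.31 to 0.17, Kif26b from -0.093 to 0.16, Kif6 from -0.29 to 0.074, Dync1h1 from -0.031 to 0.045, Dync2li1 from -0.085 to 0.087, Dync2h1 from -0.11 to 1.55, Kif3a from -0.68 to 0.0047 and Dync1i1 from -0.31 to 0.59. The other 28 named genes kept 1 sign without each library, and in 20 of them at least 1 library moved the log2 fold change by over 1.5 times. Depth and spread between libraries both enter the 95% intervals and were not separated; of the 8 tested mitotic kinesins, none had an interval inside a 1.5-fold change.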
